A study of Mus musculus with 31 samples.

Results

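The 9 genes described here mark or supply the inhibitory interneurons of the forebrain: the peptide genes Cck, Vip, Npy and Sst, the secreted glycoprotein gene Reln, the calcium-binding protein genes Pvalb and Calb2, the transcription factor gene Lhx6 and the enzyme gene Nos1. They were chosen by name as known markers and are 9 of the 17897 named genes tested on the arrays. Every one had a probe, and the brightest probe of each gene was used. Levels are log2 signals, each set relative to the 75th percentile of its own array, so a difference of 1 is a doubling, and levels are compared between samples of 1 gene and not between genes.

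RNA came from the nucleus accumbens (NAc), the ventral part of the striatum, and from the medial prefrontal cortex (mPFC) of female DBA2/J (DBA) and C57BL/6J (C57) mice aged 12 weeks. The labels also give the age as a range that ends at 12 weeks. Whole litters under repeated cross-fostering (RCF) changed dam every day between postnatal days 1 and 4 and stayed with the last of 4 adoptive mothers. In control litters the pups were lifted out each day and put back with their own mother. All mice were weaned on day 28, and at most 2 came from a cage or litter. After near-duplicate arrays were averaged, the 31 arrays gave 27 samples. The DBA NAc had 4 RCF and 4 control samples, the DBA mPFC 3 and 3, the C57 NAc 4 and 2, and the C57 mPFC 4 and 3. No label says whether an NAc and an mPFC sample came from 1 animal, and p-values measure the spread between these samples only.

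Interneurons release the inhibitory transmitter GABA onto nearby neurons, and their classes are told apart by the peptides and proteins they make. In the cortex, Pvalb and Sst cells descend from precursors that depend on Lhx6, while Vip cells and many Cck and Calb2 cells have another origin. Cck is also made by cortical pyramidal neurons, so in bulk cortex it is no pure interneuron marker. In the striatum most neurons are GABA-releasing projection neurons, and Sst, Npy and Nos1 are known to occur together in 1 class of interneuron. In bulk tissue, fewer cells of a type and less RNA per cell cannot be told apart.

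Of the 27 samples, 6 went against their labels on marker genes and are called samples in doubt. By striatal minus cortical marker genes, C57 NAc control 1 and 3 (an averaged pair, score -0.91) and C57 NAc RCF 1 (-0.64) lay on the cortical side of the midpoint of 1.46, and C57 mPFC RCF 1 (3.60) and C57 mPFC control 3 (3.13) on the striatal side. By strain marker genes, DBA mPFC control 1 and DBA NAc control 4 lay on the C57 side, and DBA mPFC control 1 also had a low level of Xist, the transcript of the inactive X chromosome of females (-5.87, against a midpoint of -2.19). Results that rest on these 6 samples are given with and without them. For 29 of the 31 samples the authors' table of processed values equals a scanner file listed with another sample. The table was followed throughout, and with the files as listed no feature was called between the regions of either strain, while 5612 to 11483 features were called in the 4 comparisons of RCF with control. After this matching, each strain and region had a slide and a scan day of its own, so that region and strain cannot be told apart from slide, whereas RCF and control samples shared slides.

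The sequences before the start sites of Cck, Vip and Sst are shown because Cck and Vip had the largest regional differences among the 9 genes, and because the Sst promoter holds the best-known element of the kind marked here. They are the 250 bases before the RefSeq start site in build GRCm38.p6, on the gene's strand. Cck is at chr9:121495695-121495944 on the minus strand, Vip at chr10:5638968-5639217 on the plus strand and Sst at chr16:23890845-23891094 on the minus strand. Capitals mark TGACG or, on the other strand, CGTCA, the core of the cyclic AMP response element, to which CREB-type factors bind.
Cck: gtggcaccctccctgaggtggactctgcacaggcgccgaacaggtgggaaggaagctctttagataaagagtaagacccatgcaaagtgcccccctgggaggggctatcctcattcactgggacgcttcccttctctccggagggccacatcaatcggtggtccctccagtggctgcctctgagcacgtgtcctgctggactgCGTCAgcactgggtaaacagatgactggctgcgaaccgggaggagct
Vip: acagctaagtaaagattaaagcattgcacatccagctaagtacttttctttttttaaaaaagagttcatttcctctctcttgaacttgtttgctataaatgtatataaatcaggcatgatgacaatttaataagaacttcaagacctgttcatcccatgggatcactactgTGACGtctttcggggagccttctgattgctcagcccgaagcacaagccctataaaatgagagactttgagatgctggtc
Sst: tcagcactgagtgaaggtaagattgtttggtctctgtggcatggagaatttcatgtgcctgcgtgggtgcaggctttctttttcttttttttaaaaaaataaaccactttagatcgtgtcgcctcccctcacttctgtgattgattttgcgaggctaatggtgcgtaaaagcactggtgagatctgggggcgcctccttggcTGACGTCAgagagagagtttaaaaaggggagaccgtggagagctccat
The match began 47 bases before the start site in Cck and 79 bases before it in Vip. In Sst the 2 core matches overlapped, beginning 48 and 45 bases before the start, and made the full palindrome TGACGTCA. Nos1, with a match 130 bases before its start, was the only other one of the 8 genes with a promoter entry to hold one. Calb2 was not in the table. Across all 32851 promoter windows of this length, 17.8% held this core on either strand and 1.55% held the full palindrome. Some genes had more than 1 window: of the 11 windows of the 8 genes, 4 held the core and 1 the full palindrome.

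Cck and Vip were the members with the largest regional difference in DBA mice, both lower in the NAc. Cck encodes cholecystokinin, made by a class of basket cells and by pyramidal neurons. Its level in the DBA NAc was 3.18, 4.98, 3.60 and 6.47 in RCF samples 1 to 4 and 3.80, 2.79, 2.87 and 3.57 in control samples 1 to 4. In the DBA mPFC it was 8.15, 8.29 and 7.90 in the RCF samples and 7.38, 8.10 and 8.05 in the control samples. No NAc sample reached the lowest mPFC sample, and NAc RCF 4 and RCF 2 lay above the rest of the NAc. Cck was lower by 4.07 ± 0.70 (SE) in the NAc, a 16.8-fold difference (limma, Benjamini-Hochberg adjusted p = 5.01e-05).

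Vip encodes vasoactive intestinal peptide, which marks interneurons that inhibit other interneurons. It had -3.07, -1.84, -1.84 and 0.62 in DBA NAc RCF samples 1 to 4 and -1.49, -3.58, -3.00 and -2.79 in the control samples. The DBA mPFC had 1.92, 2.28 and 1.81 in RCF samples and 1.65, 1.56 and 2.32 in control samples. The regions did not overlap, and NAc RCF 4 was again the highest NAc sample. The difference, NAc minus mPFC, was -4.05 ± 0.74, or 16.5-fold (limma, adjusted p = 9.62e-05). Without the samples in doubt Cck differed by -4.24 ± 0.43 and Vip by -4.08 ± 0.46, with both still past the threshold of 0.05.

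**Figure D1:**
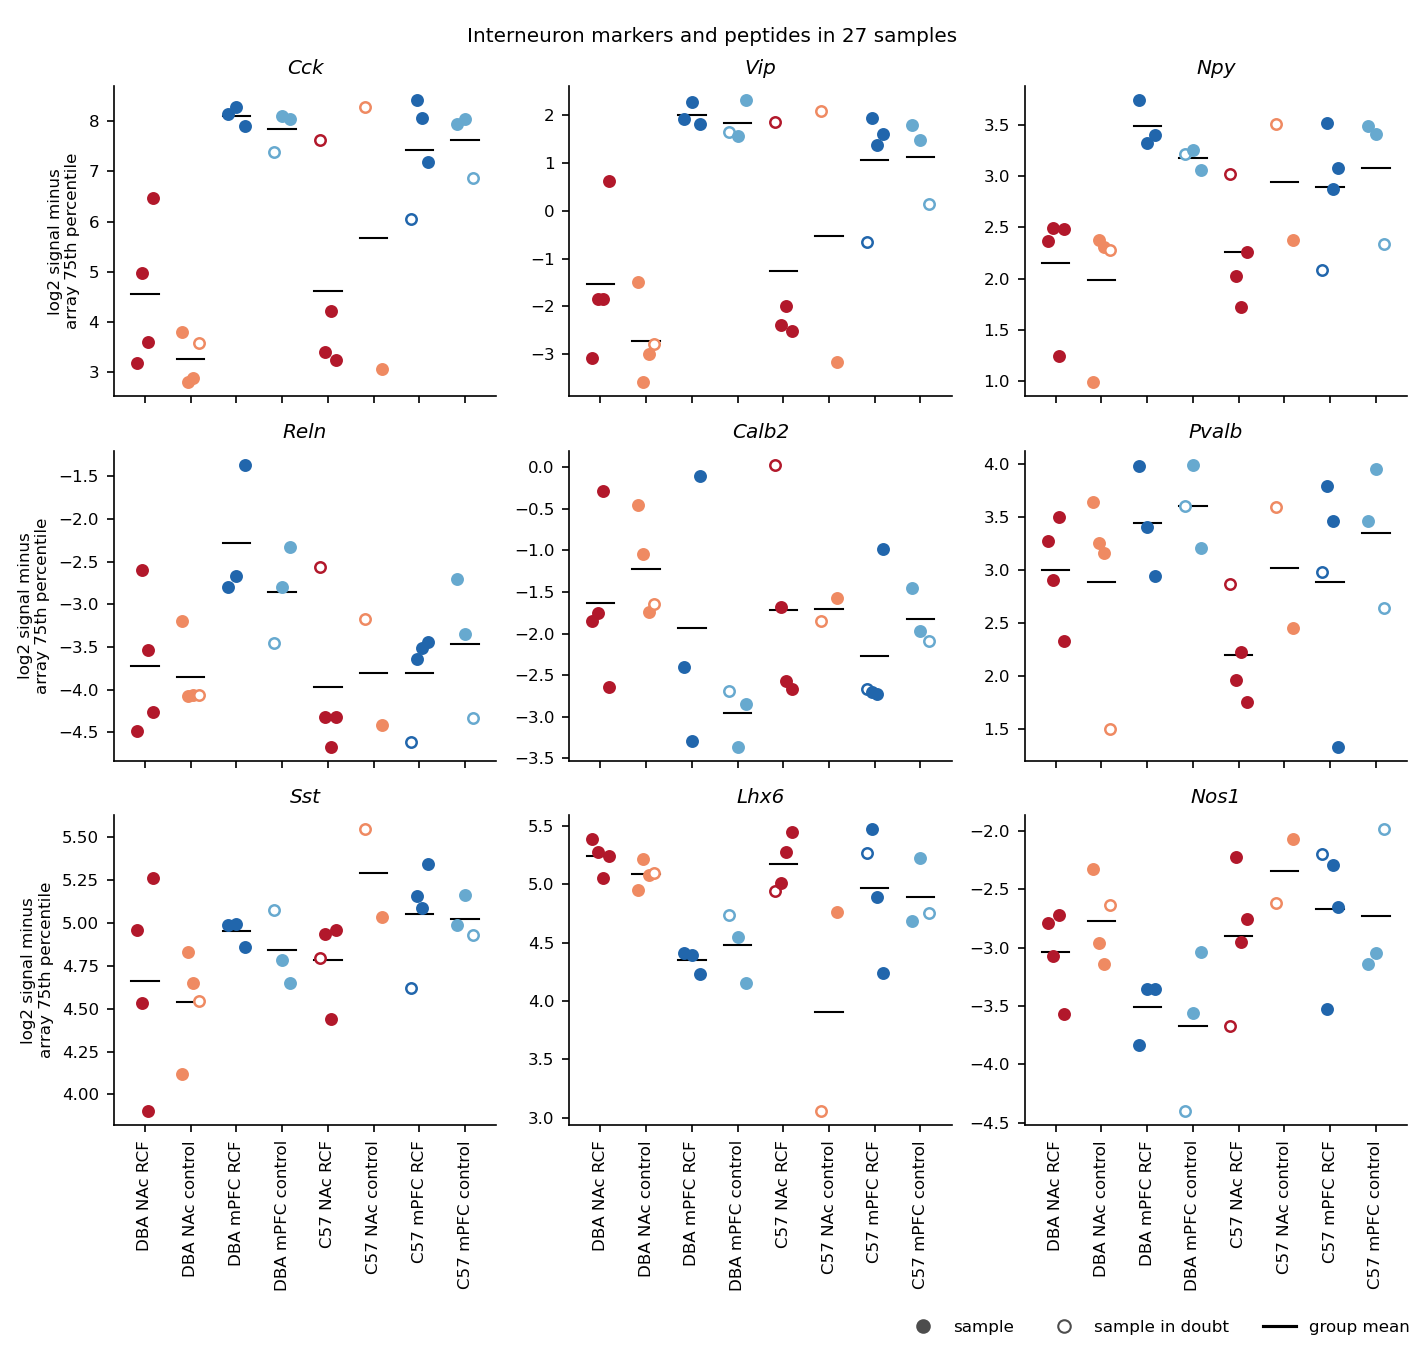
Log2 level relative to the array's 75th percentile (y axis) of each of the 9 genes in the 8 groups (x axis). Each point is a sample, open where the sample is in doubt, and bars are group means; Cck and Vip lie low in the NAc (red) and high in the mPFC (blue) apart from open points of the C57 groups and DBA NAc RCF 4 (Cck of 6.47, Vip of 0.62).

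Npy, the gene of neuropeptide Y, was lower in the DBA NAc too. Its lowest, median and highest levels were 0.99, 2.34 and 2.49 in 8 NAc samples and 3.06, 3.29 and 3.74 in 6 mPFC samples, with no overlap. It was lower in the NAc by 1.27 ± 0.28 (2.40-fold; limma, adjusted p = 0.000661), and by 1.30 ± 0.25 without the samples in doubt. Sst, the gene of somatostatin, had 3.90, 4.60 and 5.26 in the NAc and 4.65, 4.92 and 5.07 in the mPFC, and the regions overlapped over most of their range. Its difference of -0.29 ± 0.17 had a 95% interval of -0.64 to 0.05 (limma, adjusted p = 0.142). Without NAc RCF 4 the Sst difference was -0.39 (adjusted p = 0.0378).

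A pattern picked out after the values were seen concerned 2 samples. The 2 lowest DBA NAc samples for Npy, RCF 3 (1.24) and control 1 (0.99), were also the 2 lowest for Sst (3.90 and 4.12) and the 2 highest for Calb2 (-0.28 and -0.46). On the probes used they were the 2 highest for Pvalb (3.50 and 3.64) and the 2 lowest for Lhx6 (5.05 and 4.95) as well. A second Lhx6 probe had the opposite order: they were the 2 highest on it (1.64 and 1.87), with the others at -0.17 to 1.21. These 2 samples had striatal marker scores of 1.50 and 1.45, while the other DBA NAc samples had 3.04 to 3.64. Their score for neighbouring forebrain (genes of septum, diencephalon, piriform cortex and olfactory tubercle, Calb2 left out) was -0.19 and -0.11, and that of the other 6 was -0.97 to -0.77. The part of these tissues in the 2 samples' levels was not tested.

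Reln encodes reelin, secreted by superficial cortical interneurons and neurogliaform cells. Its levels were -4.48, -4.06 and -2.60 (lowest, median, highest) in the DBA NAc and -3.46, -2.73 and -1.36 in the DBA mPFC. The ranges overlapped: NAc RCF 2 at -2.60 lay above 4 of the 6 mPFC samples, 3 of them not in doubt, and NAc control 1 (-3.20) lay above mPFC control 1, a sample in doubt. Reln was lower in the NAc by 1.22 ± 0.37 (2.32-fold; limma, adjusted p = 0.00835), and by 1.33 ± 0.31 without the samples in doubt. It was well above background on 29 of the 31 arrays, all other members on 31, and its call was lost with normexp background correction (-0.52, adjusted p = 0.0634).

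Pvalb, the gene of parvalbumin in fast-spiking cells, and Calb2, the gene of calretinin, were not called between the DBA regions. Pvalb had 1.50, 3.21 and 3.64 in the NAc and 2.94, 3.51 and 3.99 in the mPFC, a difference of -0.58 with a 95% interval of -1.33 to 0.18 (limma, adjusted p = 0.183). Calb2 had -2.64, -1.69 and -0.28 in the NAc and -3.36, -2.77 and -0.11 in the mPFC. Its difference of 1.02 ± 0.47 missed the threshold (limma, adjusted p = 0.0674). In the mPFC, RCF 4 at -0.11 stood apart, and without it the difference was 1.48 (adjusted p = 0.0068). Leaving out NAc RCF 4, the lowest NAc sample for Calb2, also brought it past the threshold (1.19, adjusted p = 0.0381).

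Lhx6 and Nos1 were the 2 members that were higher in the DBA NAc. Lhx6, which specifies Pvalb and Sst interneurons, had 5.39, 5.27, 5.05 and 5.24 in NAc RCF samples and 4.95, 5.21, 5.08 and 5.10 in NAc control samples. In the mPFC it had 4.41, 4.40 and 4.23 in RCF samples and 4.74, 4.55 and 4.15 in control samples. Every NAc sample was above every mPFC sample, and the spread within each region was small. The difference was 0.75 ± 0.20 (1.68-fold; limma, adjusted p = 0.00316) and 0.81 ± 0.17 without the samples in doubt. The second Lhx6 probe gave a larger difference in the same direction, 2.08 ± 0.42 (limma, adjusted p = 0.000263), and correlated with the first at r = 0.60 over 27 samples.

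Nos1 encodes neuronal nitric oxide synthase. It had -3.57, -2.87 and -2.32 in the DBA NAc and -4.40, -3.46 and -3.04 in the DBA mPFC, with overlap. Its difference of 0.69 ± 0.26 (1.61-fold) passed the threshold narrowly (limma, adjusted p = 0.0306). The lowest mPFC value belonged to control 1, a sample in doubt, and without the samples in doubt the difference was 0.48 ± 0.23 (adjusted p = 0.0811). It also missed the threshold without any 1 of NAc RCF 1 (0.65), NAc RCF 3 (0.64), NAc control 1 (0.62), mPFC RCF 1 and 3 (0.61) or mPFC control 1 (0.50).

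In all, 4 of the 9 genes were lower and 2 higher in the DBA NAc, while 37.1% of all 30165 features were lower and 19.4% higher (56.6% called in either direction). The share of the members called was thus near the background. Their median difference was -0.58, against -0.13 over all features.

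**Figure D2:**
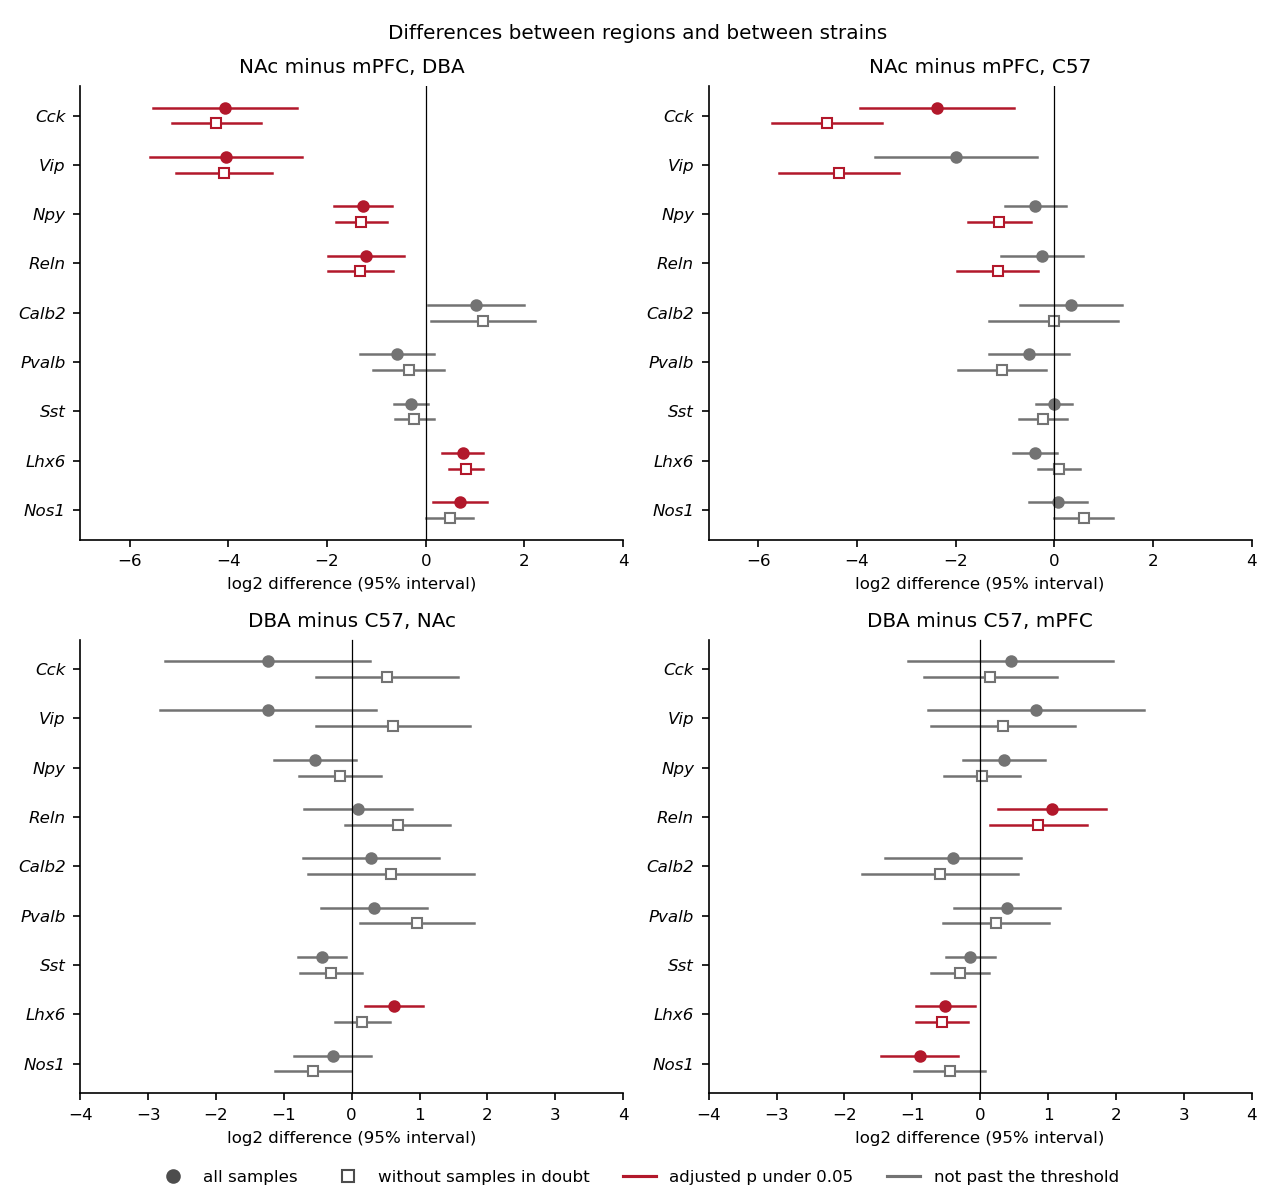
Log2 difference (x axis) of the 9 genes (y axis) with its 95% interval from the limma model, for NAc minus mPFC in each strain and DBA minus C57 in each region. Circles use all samples and squares leave out the 6 in doubt, red marks an adjusted p under 0.05; without the samples in doubt Cck differed by -4.24 in DBA and -4.60 in C57 mice, and Vip by -4.08 and -4.36.

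In C57 mice the regional picture depended on the samples in doubt. Cck in the C57 NAc was 7.64, 3.40, 4.22 and 3.23 in RCF samples 1 to 4 and 8.28 and 3.06 in control samples 1 and 3 (averaged) and 2 and 4 (averaged). In the C57 mPFC it was 6.06, 8.42, 8.06 and 7.19 in RCF samples and 7.95, 8.04 and 6.87 in control samples. The 2 high NAc values and the 2 lowest mPFC values are the 4 samples whose region markers went against their labels. With all samples Cck was lower in the NAc by 2.38 ± 0.75 (5.21-fold; limma, adjusted p = 0.0461) and was the 1 member called, where 6.32% of all features were lower and 10.1% were called in either direction. That call was lost without any 1 of the 9 C57 samples not in doubt (-2.42 to -1.08), most so without NAc control 2 and 4 (-1.08, adjusted p = 0.446).

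With these samples left out, Cck in the C57 NAc was 3.06 to 4.22 in 4 samples, against 7.19 to 8.42 in 5 mPFC samples. Only 1 of these 4 NAc samples was a control, and it carried the same weight as the mean of the RCF samples. The difference was then -4.60 ± 0.53, a 24.3-fold one. The C57 samples in doubt were left out for their region markers. For a gene that follows region, a wider difference with less spread was partly set by that choice. Calls between C57 regions in this fit are therefore no independent test. Vip had -1.99 ± 0.79 (limma, adjusted p = 0.108) with all samples and -4.36 ± 0.57, or 20.6-fold, without those in doubt. Its NAc samples then lay at -3.15 to -1.99 and its mPFC samples at 1.38 to 1.95. For both peptides the samples in doubt thus decided the size of the C57 difference.

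Npy and Reln followed the same pattern in C57 mice. Npy differed by -0.38 ± 0.30 with all samples (limma, adjusted p = 0.439) and by -1.11 ± 0.30 without those in doubt. Reln differed by -0.25 ± 0.40 (limma, adjusted p = 0.725) and by -1.15 ± 0.39, in the same order. When the samples in doubt were left out, 4 of the 9 genes were called lower and none higher, against 25.5% of all features called in either direction.

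The other 5 genes were called in neither form of the C57 comparison. With only the samples not in doubt, Pvalb differed by -1.07 with an interval of -1.96 to -0.18 (adjusted p = 0.0733), and Nos1 by 0.60 (adjusted p = 0.133). Sst had -0.23, Calb2 -0.01 and Lhx6 0.10, each with an interval that held 0. Lhx6 had -0.39 with all samples, among them NAc control 1 and 3, a sample in doubt with 3.06 where the other C57 NAc samples had 4.76 to 5.45. Without NAc control 2 and 4, which left NAc control 1 and 3 as the only C57 NAc control, Lhx6 was lower in the NAc by 0.81. With all samples the second Lhx6 probe opposed the first in sign, at 0.73 ± 0.45 (limma, adjusted p = 0.311). Without those in doubt, that probe had 0.88 to 1.51 in the C57 NAc and -1.24 to -0.15 in the C57 mPFC. These ranges did not overlap, and the difference was not tested.

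**Figure D3:**
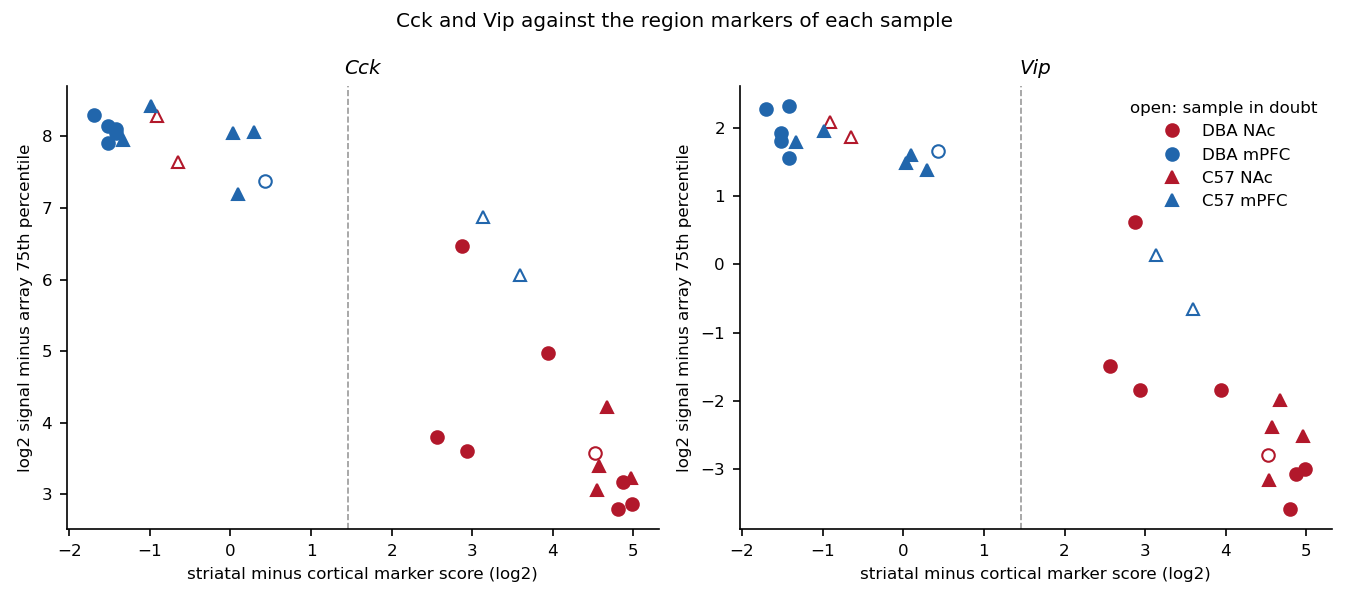
Level of Cck and Vip (y axis, log2 relative to the array's 75th percentile) against the striatal minus cortical marker score of the sample (x axis, log2), with the midpoint dashed. Each point is 1 of 27 samples, open where in doubt; the 2 open red triangles on the left are C57 NAc samples with Cck of 7.64 and 8.28, and the 2 open blue triangles on the right are C57 mPFC samples with Cck of 6.06 and 6.87.

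Genes related to these 9 were grouped in lists and compared between the regions of DBA mice. All 4 genes of GABA synthesis and transport were higher in the NAc, among them Gad2 by 2.30 and Gad1 by 1.59, which make GABA, and Slc32a1 by 1.95, which loads it into vesicles. The median of this list was 1.77, against -0.58 for the 9 interneuron genes. Of 20 interneuron transcription factors, 10 were higher and 5 lower, among them Dlx6 (2.07 ± 0.40) and Dlx5 (1.80 ± 0.34), factors of ventral forebrain development. The count of higher factors includes Lhx8 and Nkx2-1, which act beside Lhx6 in the medial ganglionic eminence. Both were well above background on all DBA NAc arrays, on none of the DBA mPFC RCF arrays and on 1 DBA mPFC control array, so they passed the filter through the NAc and no size is given for their difference. Of 33 other interneuron markers, 8 were higher and 9 lower. The largest were Tacr3 (4.73), Penk (3.51), Tac1 (3.19) and Tacr1 (3.15), of which Penk and Tac1 are also peptides of striatal projection neurons. Tacr3 was well above background on 3 DBA mPFC RCF arrays and 1 DBA mPFC control array. Chodl, also among the 33, was so on all DBA NAc arrays but on only 1 RCF and 1 control array of the DBA mPFC.

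The peptide receptors were mostly lower in the DBA NAc, 8 of 13, and 3 were higher. Cckbr, the main brain receptor for cholecystokinin, was lower by 2.93 ± 0.46, and without the samples in doubt by 2.98. The 3 higher ones include Cckar, the other receptor, which was well above background on 1 DBA mPFC control array and none of the RCF arrays there, so that no size is given for it. Npy2r was higher by 2.60 ± 0.55, and the somatostatin receptor Sstr3 lower by 2.49 ± 0.49. Of 9 reelin pathway genes, 2 were higher and 3 lower: the receptor genes Vldlr (0.73) and Lrp8 (-0.73) differed in opposite directions, and the adaptor Dab1 (-0.74) and Pafah1b1 (-0.46) were lower. Of 12 nitric oxide pathway genes, 1 was higher, Arg2 (1.44), and 4 lower, among them Pde5a (-2.06), which breaks down cyclic GMP, and the Nos1 partners Nos1ap (-0.87) and Dynll1 (-0.81). All genes named in these lists passed the threshold (limma, adjusted p under 0.05).

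Markers of the regions' own cell types moved with these lists. In DBA mice 22 of 25 striatal projection neuron genes were higher in the NAc and 18 of 24 cortical excitatory neuron genes lower. Among the 25, Ido1 was well above background on all DBA NAc arrays but on only 1 DBA mPFC array, a control. Among the 24, Neurod1 was so on all DBA mPFC arrays but on only 2 RCF arrays and 1 control array of the DBA NAc. Of 12 oligodendrocyte and myelin genes 8 were higher and 1 lower, and of 10 microglia genes none was higher and 7 were lower. Their part in the values of the 9 genes was not tested.

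**Figure D4:**
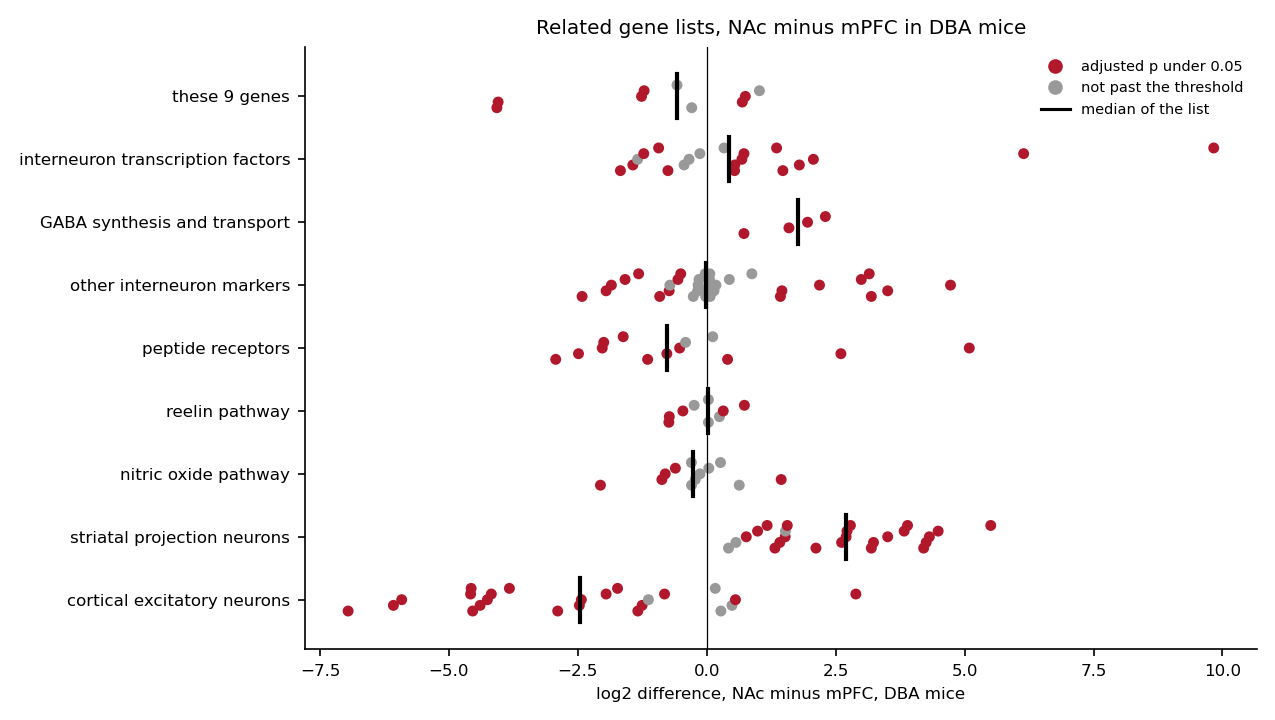
Log2 difference, NAc minus mPFC in DBA mice (x axis), of each tested gene of 9 lists (y axis); red points have an adjusted p under 0.05 and black bars are list medians. The 4 GABA genes lie right of 0 while Cck and Vip lie furthest left among the 9 interneuron genes.

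In C57 mice with all samples, few list genes were called, among them Sox6 (1.03) of the factors, Cort (-1.67) and Cox6a2 (-0.56) of the markers, and Sstr3 (-1.91) of the receptors. Reelin pathway genes Lrp8 (-0.71) and Crkl (0.57) and the cyclic GMP-dependent kinase genes Prkg1 (0.61) and Prkg2 (0.52) were also called. Without the samples in doubt all 4 GABA genes were higher (Gad2 by 2.15, Gad1 by 1.09), and 7 of 20 factors were higher and 6 lower. Cckbr then differed by -2.54 and Npy2r by 3.08, in the directions they had in DBA mice.

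Between strains in the mPFC, 3 of the 9 genes were called, Reln higher and Lhx6 and Nos1 lower in DBA mice. Of all features 29.1% were higher and 19.1% lower (48.2% in either direction), so 3 of 9 is below the background share. Reln had -3.46, -2.73 and -1.36 (lowest, median, highest) in 6 DBA samples and -4.61, -3.52 and -2.71 in 7 C57 samples. It was higher by 1.06 ± 0.39 (2.09-fold; limma, adjusted p = 0.0271), and by 0.86 ± 0.34 without the samples in doubt (adjusted p = 0.0496). The call was lost without DBA RCF 4 (0.83, adjusted p = 0.0942), DBA control 3 (0.93), C57 RCF 1 (0.93) or C57 control 3 (0.84), and with normexp background correction the difference was 0.31 (adjusted p = 0.311).

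Lhx6 in the mPFC had 4.15, 4.41 and 4.74 in DBA samples and 4.24, 4.89 and 5.47 in C57 samples, with overlap. It was lower in DBA mice by 0.51 ± 0.21 (1.43-fold; limma, adjusted p = 0.0455), and by 0.56 ± 0.18 without the samples in doubt (adjusted p = 0.0176). That first call was close to the threshold: it held without DBA control 1, C57 control 1 or C57 RCF 4, and leaving out any 1 of the other 10 samples ended it, with differences of -0.55 to -0.43. Nos1 had -4.40, -3.46 and -3.04 in DBA samples and -3.52, -2.65 and -1.99 in C57 samples, and was lower by 0.89 ± 0.27 (1.86-fold; adjusted p = 0.00997). Its call was lost without the samples in doubt (-0.45, adjusted p = 0.154), of which C57 control 3 (-1.99) and C57 RCF 1 (-2.20) were the highest and DBA control 1 (-4.40) the lowest.

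The peptide genes were not called between strains in the mPFC. Cck differed by 0.45 with an interval of -1.06 to 1.96, Vip by 0.82 (-0.77 to 2.41), Npy by 0.35 (-0.25 to 0.95) and Sst by -0.15 (-0.50 to 0.21). Among their receptors 4 of 13 were higher in DBA mice: Sstr2 (1.42), Cckbr (1.28), Sstr4 (0.80) and Sstr1 (0.73). Of the 33 other markers 7 were higher and 6 lower: Penk (-1.96), Tac1 (-1.84) and Chat (-1.50), the gene for acetylcholine synthesis, were lower, and Crhbp (1.45) was higher. Of the 20 transcription factors 2 were higher, with Sox6 at 1.05, and 7 lower, among them Sp9 (-1.18) and Dlx5 (-1.12). Leaving out the samples in doubt gave 2 higher and 4 lower factors, with Sp9 (-1.01), Dlx5 (-0.85) and, of the markers, Tac1 (-1.13) no longer called. In the same comparison 6 of 25 striatal projection neuron genes were lower and none higher in DBA mice, and 7 were lower when the samples in doubt were left out. The mean level of these genes was -0.04 to 1.91 in DBA mPFC and 0.13 to 3.72 in C57 mPFC samples, and -0.04 to 0.21 and 0.13 to 1.71 without those in doubt. Their part in these differences was not tested.

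In the NAc, Lhx6 was the 1 member called between strains, where 12.8% of all features were higher and 19.1% lower in DBA mice (31.9% in either direction). It had 4.95, 5.16 and 5.39 in 8 DBA samples and 3.06, 4.98 and 5.45 in 6 C57 samples. The difference of 0.62 ± 0.21 (1.54-fold; limma, adjusted p = 0.0253) rested on C57 control 1 and 3 at 3.06: without it the difference was 0.20 (adjusted p = 0.508), and without all samples in doubt 0.15 (adjusted p = 0.608). On the second Lhx6 probe the difference with all samples was 0.72 ± 0.44 (limma, adjusted p = 0.217). Sst was lower in DBA mice by 0.44 with an interval of -0.79 to -0.08 but missed the threshold (adjusted p = 0.058). It passed without any 1 of DBA RCF 1 (-0.49), DBA RCF 4 (-0.54), DBA control 2 (-0.48), C57 RCF 3 (-0.49) or C57 control 2 and 4 (-0.56), and was -0.31 (adjusted p = 0.335) without the samples in doubt. Cck (-1.24) and Vip (-1.23) were not called, and both turned to positive values without the samples in doubt (0.52 and 0.61, not called). Without C57 control 2 and 4, which left C57 control 1 and 3 as the only C57 NAc control sample, both were lower in DBA mice by 2.54 (adjusted p = 0.00903 for Cck and 0.0145 for Vip).

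Of the related genes in the NAc, 1 receptor was higher in DBA mice, Npy2r (1.56), and 2 were lower, Vipr1 (-1.20), a receptor for vasoactive intestinal peptide, and Sstr5 (-0.55). Chodl (1.55), known from long-range Sst cells, was higher and Eya1 (-0.85) lower. Dynll1, which binds the Nos1 protein, was lower in DBA mice by 1.41 in the NAc and by 1.08 in the mPFC, and both calls held without the samples in doubt (-1.22 and -1.31). Without those samples Npy2r, Vipr1, Sstr5, Chodl and Eya1 were not called.

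Whether the regional difference itself differed between strains was tested as an interaction (DBA minus C57 of NAc minus mPFC), in which 9.89% of all features had a positive and 21.5% a negative interaction (31.4% called). Lhx6 was the 1 member called, at 1.13 ± 0.29 (limma, adjusted p = 0.00567). It was 0.72 ± 0.26 (adjusted p = 0.0669) without the samples in doubt, and 1.36 ± 0.62 (adjusted p = 0.0981) on the second probe. That 1.36 used all samples. Without those in doubt, the second probe had -0.17 to 1.87 in the DBA NAc and -1.46 to -0.94 in the DBA mPFC. In C57 mice it had 0.88 to 1.51 in the NAc and -1.24 to -0.15 in the mPFC, and this interaction was not tested. For Cck the interaction was -1.69 with an interval of -3.82 to 0.44, and 0.36 (-1.06 to 1.79) without the samples in doubt. For Vip it was -2.05 (-4.30 to 0.20) and 0.28 (-1.27 to 1.83). The intervals without the samples in doubt reached more than 2-fold in either direction. Leaving out C57 NAc control 2 and 4 alone left a sample in doubt as the only C57 NAc control. The interactions were then -2.99 for Cck, -3.36 for Vip and -1.17 for Npy.

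RCF and control mice were compared within each strain and region, the question the fostering design asks. None of the 9 genes was called in any of the 4 comparisons (limma, all 30165 features). Over all features, 0% were called in the DBA NAc, DBA mPFC and C57 mPFC and 0.593% in the C57 NAc (0.0729% higher and 0.52% lower in RCF mice), and at an unadjusted p under 0.05 there were 607, 469, 745 and 3353 features. Among the 9 genes that unadjusted count was 0 in the first 3 comparisons and 1 in the C57 NAc, Lhx6.

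The widest differences in the DBA NAc were those of Cck and Vip. Cck was higher in RCF mice by 1.30 with an interval of -0.61 to 3.21, and Vip by 1.18 (-0.83 to 3.20). Of the Cck values given above, RCF 4 (6.47) and RCF 2 (4.98) lay above all control samples, while RCF 1 (3.18) and RCF 3 (3.60) lay among them. RCF 4 and RCF 2 also had the 2 highest cortical marker scores of the DBA NAc, 0.58 and -0.39, where the other samples had -1.76 to -0.96. A model with the striatal minus cortical score of each sample as a covariate gave 0.93 for Cck and 0.78 for Vip, neither called. Its slope came from all 8 groups, with the C57 samples in doubt among them. The part of the score within the DBA NAc was not tested. Without the samples in doubt the Cck difference was 1.40 (0.25 to 2.56) with an adjusted p of 1.

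In the DBA mPFC, Calb2 had the widest difference, 1.03 with an interval of -0.43 to 2.50. It had -2.40, -3.29 and -0.11 in RCF samples and -2.69, -3.36 and -2.84 in control samples, so that 1 RCF sample stood apart and the other 2 lay around the controls. That sample, RCF 4, was also the highest of all 27 for Reln (-1.36). Cck, Vip, Npy and Sst differed there by 0.27, 0.16, 0.31 and 0.11, each with an interval that held 0.

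Lhx6 in the C57 NAc came nearest to a call. It had 4.94, 5.01, 5.28 and 5.45 in RCF samples and 3.06 and 4.76 in control samples. All RCF samples were above both control samples, and the lower control sample, 1 and 3, is in doubt. The difference was 1.26 ± 0.32 (2.39-fold; limma, adjusted p = 0.0768). Without the samples in doubt 1 control sample was left, taken to vary like the other groups, and the difference was 0.48 with an interval of -0.19 to 1.16. On the second probe, with all samples, it was 0.38 ± 0.68. On the first probe, leaving out control 2 and 4 left the sample in doubt as the only control, and the difference was 2.11. Among the related genes, the only one called in any RCF comparison was Eya1, one of the other interneuron markers, lower by 1.44 ± 0.30 in the C57 NAc (limma, adjusted p = 0.0321), and no gene of that list was called there without the samples in doubt.

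The other members of the C57 groups gave wide intervals around 0. In the C57 NAc, Pvalb differed by -0.82 (-2.03 to 0.39), Npy by -0.68 (-1.62 to 0.25), Sst by -0.51 (-1.06 to 0.05) and Nos1 by -0.56 (-1.44 to 0.32). In the C57 mPFC all 9 differences were between -0.46 (Pvalb) and 0.08 (Lhx6). The intervals show the size that could have gone unseen: over the 4 comparisons they were 3.82 to 4.67 log2 units wide for Cck and 0.91 to 1.11 for Sst. None of the 9 genes was called in the interactions of treatment with strain or region, where 0% of all features were. Without C57 NAc control 2 and 4, a sample in doubt was the only C57 NAc control. The interaction of treatment for Lhx6 was then -1.96 with strain in the NAc and 2.03 with region in C57 mice.

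**Figure D5:**
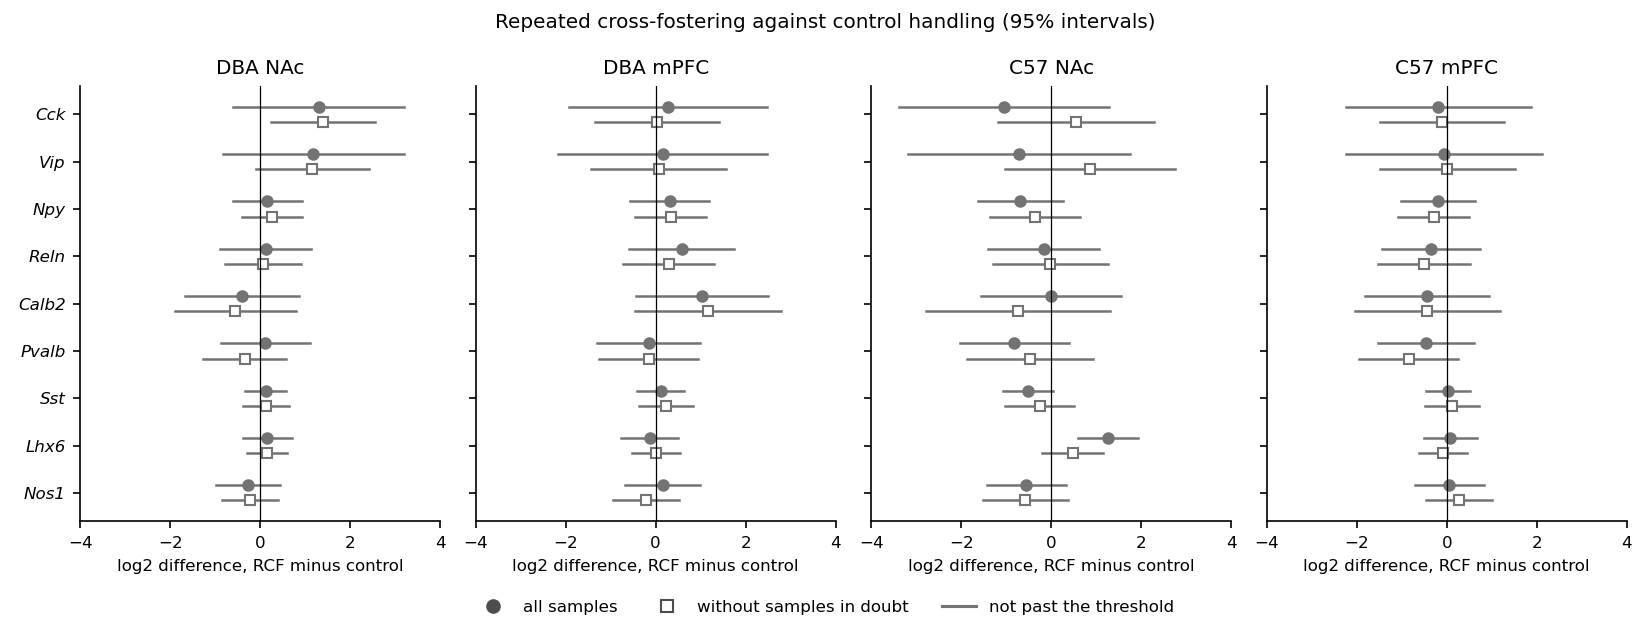
Log2 difference, RCF minus control (x axis), of the 9 genes (y axis) with 95% intervals in each strain and region. Circles use all samples and squares leave out those in doubt; no difference passed the threshold, and Lhx6 in the C57 NAc lies furthest from 0 relative to its interval.

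Across the 27 samples, the genes whose pattern was most like each member were found by Pearson's r over 14418 genes well above background on all arrays. These are descriptions over samples that share the split by region and slide. Cck went with Wnt9a (0.994), Arhgap15 (0.992) and Bdnf (0.990), and Vip with Bdnf (0.988), Ccn3 (0.985) and C1ql3 (0.984). Bdnf, the gene of brain-derived neurotrophic factor, was on both lists, and Cck and Vip correlated with each other at 0.982. Npy went with Lamp5 (0.919), a marker of neurogliaform cells, Zfp365 (0.915) and 9830166K06Rik (0.914).

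The Lhx6 probe used had near neighbours of its own, Slc8a3 (0.993), Tacr2 (0.992) and Oacyl (0.989). It correlated with the second Lhx6 probe at only 0.601, so these may be neighbours of that probe and not of the gene, which was not tested. The remaining members had looser neighbours. For Reln these were Mapkapk2 (0.873), Atp6v1b2 (0.872) and Slc6a17 (0.870), and for Pvalb Psmb10 (0.862), Acot7 (0.859) and Ankrd9 (0.857). Sst went with Atrx (0.824), Rgs7bp (0.820) and Gpsm2 (0.816), Nos1 with Myh15 (0.812), Ipo8 (0.810) and Znhit6 (0.799), and Calb2 with Lbhd2 (0.781), Zfp608 (0.780) and Ctbp2 (0.779). Sst and Npy, markers of 1 striatal class, correlated at 0.721, and neither had a positive correlation with Nos1 (Sst -0.164, Npy -0.552).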

How the data were processed

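The 31 one-colour arrays were scanned and read with Agilent Feature Extraction 10.7.3.1, per the file headers, which name build mm9. The deposited scanner files hold a background-subtracted intensity per spot, not normalized between arrays, and, per the file headers, yes-or-no marks of whether a spot is saturated, an outlier or well above background. The authors' series matrix holds log2 values of 30067 probes. The submitters' processing notes name limma without a use.

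For 29 of 31 samples the matrix column equals a scanner file listed with another sample, so each array took the sample of the column it correlated with best (lowest 0.999994, highest with another 0.998028). Some arrays of 1 group were near-duplicates: 1 with 3 and 2 with 4 among C57 NAc controls, 2 with 4 among DBA mPFC controls, and 1 with 3 in DBA mPFC RCF. These 4 pairs differed by 0.811 to 1.55 times the error expected from repeated spots, while the other pairs differed by 3.27 to 11.4 times. Each near-duplicate pair entered as its mean, 1 sample, at a ratio limit of 2 that was chosen once the ratios were known. Between 59.4% and 82.4% of spots per array were well above background, and the number of arrays limits the precision.

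The log2 signal minus the 75th percentile was tested for probes that 3 or more arrays of some group measured well above background and that were marked outliers on at most 50% of arrays (43417 of 55681 probes). Probes were named through RefSeq accessions in the files, and the brightest probe stood for a gene (30165 features). limma 3.58.1 (lmFit, eBayes with intensity trend) in R 4.3.3 fitted 8 group means. Region and strain differences average the RCF and control group means, and Benjamini-Hochberg adjustment ran over all features, with a threshold of 0.05. The fit was tested on simulated data. The files were read in Python 3.11.15 (pandas 2.3.3, numpy 2.4.6), with figures from matplotlib 3.10.9. Alternatives were normexp correction (offset 50, on the median spot signal, where the mean had been planned), quantile normalization, a stricter filter and none on dim probes, the matrix values, scanner files as listed, all 31 arrays, groups fitted alone, samples in doubt left out, second probes, slide column or tissue score as a covariate, a replicate block, and each sample left out.

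The 9 genes and the related lists were chosen with earlier results of these data known. All 9 are named throughout, from each related list up to 4 called genes with the largest difference, and for each member the 3 genes of highest correlation. Promoters are RefSeq's, build GRCm38.p6, and motifs were searched by letters on both strands. Some genes of the related lists are not reported here.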

Additional observations from a re-analysis of the deposited data

Results flagged for a closer look

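Among 36 sets of 4 samples (a gene in a group), 7 had a sample set apart from the rest by Dixon's criterion, and chance alone gives about 1 in 20. Vip in C57 NAc RCF 1 was 1.86, where the other 3 had -2.51 to -1.99, and Reln in that sample was -2.56, where the others had -4.67 to -4.32. Reln in C57 mPFC RCF 1 was -4.61, with the others at -3.64 to -3.44. Both samples are in doubt by region markers. Calb2 in C57 mPFC RCF 4 was -0.99, with the others at -2.72 to -2.66. In DBA NAc control 1, Npy was 0.99 (others 2.27 to 2.38) and Reln -3.20 (others -4.08 to -4.06), and in DBA NAc RCF 3 Npy was 1.24 (others 2.37 to 2.49). The regional difference of Lhx6 differed between strains by 1.13 in the test of the interaction. It was 0.72 without the samples in doubt, a fit that left 1 C57 NAc control sample.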

How the results depend on the processing

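Counts of the 9 genes called are given with the reported count in parentheses: with scanner files as listed, NAc against mPFC fell to 0 in DBA mice (6) and 0 in C57 mice (1), DBA against C57 in the NAc had 4 (1), RCF against control had 1 (0) in each C57 region, and the strain-by-region interaction had 0 (1). Over all features it called 0 between regions in either strain (17065 in DBA and 3033 in C57 mice otherwise) and 5612 to 11483 in the 4 RCF comparisons (0, 0, 0 and 179 otherwise). It also turned Nos1 (-0.12) between DBA regions, Cck (0.20) between C57 regions, Vip (-2.82), Npy (-0.80), Cck (-3.00), Calb2 (1.19), Reln (-0.33), Lhx6 (0.039) and Nos1 (0.60) between strains in the mPFC, Reln (-1.07) between strains in the NAc, and under RCF Nos1 (-1.01) in the C57 mPFC and Reln (1.43) in the C57 NAc. NAc against mPFC in C57 mice gave 0 with normexp, quantile normalization, groups fitted alone or the replicate block, and 4 without the samples in doubt. DBA against C57 in the mPFC (3) gave 1 with quantile normalization and 1 with matrix values, which held 8 of the 9 genes. With matrix values Lhx6 lost its call (-0.45), and the other gene no longer counted was not measured. In the NAc the strain comparison gave 2 with all 31 arrays and 0 without the samples in doubt. RCF against control in the C57 NAc gave 1 (Lhx6) with normexp, quantile normalization or 31 arrays. The interaction gave 2 with 31 arrays and 0 without the samples in doubt. Same-numbered samples of 2 groups deviated together (correlation over 0.1) in 4 of 12 pairings, at -0.64 to 0.45, so the numbers were not taken as pairs, and the replicate block changed no other count by over 1.5 times. With each sample left out, counts were 5 to 8 and 0 to 2 between regions (DBA, C57), 1 to 3 and 0 to 4 between strains (mPFC, NAc), 1 to 4 for the strain-by-region interaction, 0 to 1 for RCF in the C57 NAc, for strain by treatment in the NAc and for region by treatment in C57 mice, and 0 elsewhere. Causes were not tested. Of the results for single genes, 2674 kept their side of the threshold, 54 lost a call, 32 gained one and 12 turned. A turn was counted only where the reported or the other setting made a call. Changes of sign between uncalled differences are among the 2674. The C57 NAc controls were 2 samples, 1 of them in doubt, which limits what could be seen there. Other alternatives called 1583 (normexp) to 7692 (without the samples in doubt) features between C57 regions, 0 (groups fitted alone) to 1184 (31 arrays) for RCF in the C57 NAc, and 4157 (normexp) to 11810 (31 arrays) for the interaction (9482 otherwise). Normexp also lowered the calls to 9523 (14529) and 5697 (9610) between strains (mPFC, NAc). Quantile normalization put the median of all features at -0.02 between DBA regions (-0.13 otherwise) and 0.01 for the interaction (-0.09 otherwise).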
